A study of Mus musculus with 12 samples.

Results

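The question examined here was whether arthritis changed gene expression in the ankle to a different extent in mice lacking matrix metalloproteinase 8 than in wildtype mice. The quantity that answers it is the genotype by arthritis interaction, the change from control to arthritic mice in Mmp8-/- animals minus the same change in Mmp8+/+ animals. It draws on all 12 of the 12 arrays of the series, 3 in each of 4 groups, and was tested on the array's features with 1 gene symbol, 21789 of 28853, less the 3294 of them with the lowest mean signal. The tested features represent 16956 genes. An interaction above 0 means that arthritic minus control signal was more positive in Mmp8-/- mice, and one below 0 that it was more positive in Mmp8+/+ mice.

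All animals were C57BL/6 mice, and the RNA came from ankle joints frozen in liquid nitrogen. Mmp8+/+ and Mmp8-/- mice were either left without arthritis or given 150 µl of K/BxN serum into the abdomen on days 0 and 2 and killed on day 7. The knockout is carried in every cell of the mouse and was backcrossed to this strain for 12 generations. Each array held RNA of 1 mouse, described by the study as male, and neither the age of the mice nor a batch is given in the labels.

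MMP-8, or neutrophil collagenase, is a secreted protease that neutrophils store in granules and that cleaves fibrillar collagen and also chemokines and other signalling proteins. K/BxN serum carries antibodies to glucose-6-phosphate isomerase, and its transfer starts a joint inflammation that runs through immune complexes, complement, mast cells and neutrophils, without T or B cells of the recipient. In such a joint the lining of fibroblasts and macrophages thickens, matrix genes and matrix proteases are switched on, and the marrow of the nearby bones shifts its blood cell production. An ankle joint sample can also contain skin, muscle, fat, tendon, bone and marrow, so in these bulk samples fewer cells of a type and less RNA per cell cannot be told apart.

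Some arrays did not match their description. The Mmp8 signal (log2 RMA value) lay between 10.21 and 11.16 in the 6 Mmp8+/+ mice and between 4.64 and 5.54 in 5 Mmp8-/- mice, but it was 10.65 in the array labelled Mmp8-/- control 2. Mmp8+/+ control 1 and Mmp8-/- control 1 had Xist signals of 10.42 and 10.92 against 4.66 to 5.41 in the other 10 arrays, and their Y-linked Eif2s3y signal was 4.02 to 4.16 against 7.94 to 9.27. Both genotypes thus held 1 such array among the controls and none among the arthritic mice. Apart from Mmp8 itself, the genes named here whose interaction moved by over 1.5 times or turned sign with all 3 of these arrays, called here both kinds of mismatched array, left out are given with that value too. The median SD within a group over the tested features was 0.202 in Mmp8+/+ controls, 0.174 in Mmp8-/- controls, 0.175 in arthritic Mmp8+/+ mice and 0.253 in arthritic Mmp8-/- mice.

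No feature passed a false discovery rate (FDR) of 5% for the interaction, a share of 0% of those tested, by limma or by ordinary linear regression, and the lowest adjusted p was 0.648. Without adjustment, 588 features had a p under 0.05, or 3.18% of those tested, which is below the 5% that this threshold lets through when nothing differs. Of these, 238 (1.29%) had an interaction above 0 and 350 (1.89%) one below 0. By comparison, arthritis itself raised 1350 features (7.3%) and lowered 2118 (11.5%) in Mmp8+/+ mice at an FDR of 5%, and raised 1489 (8.05%) and lowered 2489 (13.5%) in Mmp8-/- mice. Those counts do not measure a difference between genotypes. Between the genotypes, limma called no feature in control mice, where 385 were higher and 215 lower in Mmp8-/- mice at an unadjusted p under 0.05, and 1 feature in arthritic mice, Krtdap. That call was not made by ordinary linear regression, with array weights, without the arrays with Xist signal, over every feature, named or not, or without arthritic Mmp8+/+ mouse 2 or 3 or arthritic Mmp8-/- mouse 1 or 2. Without the Mmp8-/- array with Mmp8 signal, Mmp8 itself was called too, at -5.91 in controls (adjusted p = 3.06e-07) and -5.54 in arthritic mice (adjusted p = 1.62e-07). Without Mmp8-/- control 3, the immunoglobulin segment Igkv4-91 was called in controls (1.81, adjusted p = 0.0475). The genes and groups described from here on are therefore a ranking of measured values, and no interaction among them passed the correction.

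An interaction combines 4 group means, and its error is larger than that of a comparison of 2 groups. Its median standard error (SE) was 0.27 on the log2 scale, against 0.19 for the arthritis change within Mmp8+/+ mice. Among the 588 features with an unadjusted p under 0.05 the median size of the interaction was 0.67, and 57 features exceeded 1. The count itself depended on single arrays: it rose to 963 without Mmp8+/+ control 2 and to 939 without arthritic Mmp8-/- mouse 2, and was 298 without both arrays with Xist signal.

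Directions of change within the 588 features were mixed. The fitted arthritis change was above 0 in Mmp8+/+ and below 0 in Mmp8-/- mice for 183 features, and the opposite held for 142. It was above 0 in both genotypes for 158 and below 0 in both for 105. The arthritis change was larger in size in Mmp8-/- mice for 280 of them (47.6%) and in Mmp8+/+ mice for 308, whereas over all tested features the share larger in Mmp8-/- mice was 54.1%. So the features with the most unequal responses were not mainly ones that responded more in knockouts.

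To describe which group an unequal response came from, each feature was assigned to the group that takes part in both its larger genotype difference and its larger arthritis change. Mmp8+/+ controls were that group for 173 of the 588 features (29.4%, against 24.9% of all tested features). The corresponding shares were 24% against 26.5% for Mmp8-/- controls, 23% against 21% for arthritic Mmp8+/+ mice and 23.6% against 27.5% for arthritic Mmp8-/- mice. By this assignment all 4 groups contributed in similar proportion, and no single group carried the interaction across the array. Where both genotypes change in the same direction, the sign of the interaction alone fixes which arthritis change is the larger. The assignment therefore does not by itself show which group is unusual. In 563 of the 588 features (95.7%, against 51.8% of all) the genotype difference had opposite signs in control and arthritic mice, a pattern that choosing features on the interaction favours.

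**Figure D1:**
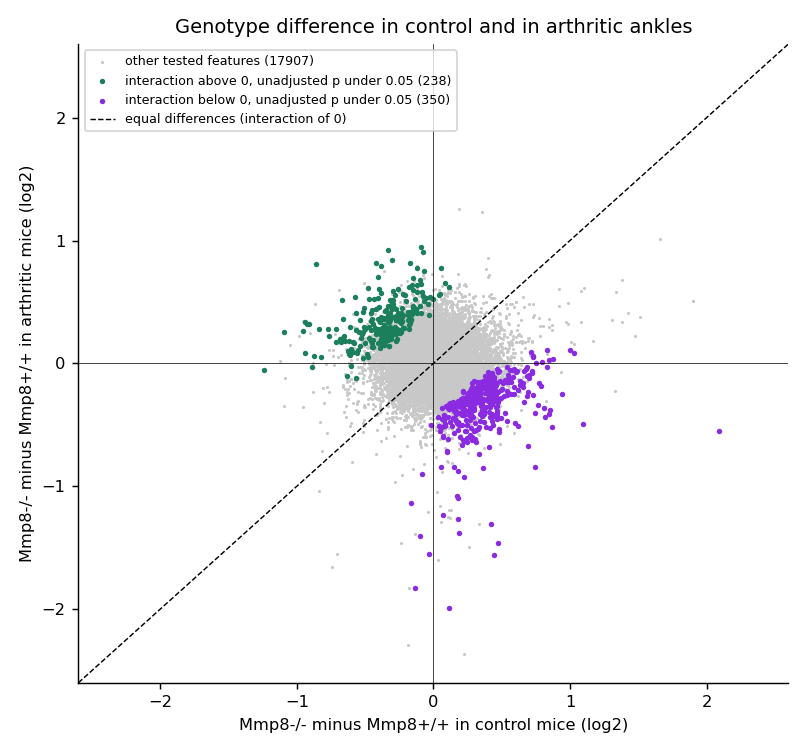
Genotype difference (Mmp8-/- minus Mmp8+/+, log2) of each tested feature in control mice (horizontal axis) and in arthritic mice (vertical axis), each from 3 mice per group; green and purple points have an unadjusted interaction p under 0.05 and an interaction above or below 0, and 2 features lie outside the axes. The 238 green and 350 purple points lie away from the diagonal on which both differences are equal, mostly in the quadrants where the differences have opposite signs.

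For 4 genes described in what follows, the 250 bases before the transcription start are shown. Krtdap, Spc25 and Trim10 come from lists in which a motif was more frequent in this window than over all promoter windows. For the keratinocyte and erythroid lists it was still found in a minority of windows. Mmp12 is shown because it was the protease with the lowest interaction p. For the other 3 lists (keratinocyte, cell cycle and erythroid genes) the member shown is the one with the lowest interaction p whose window holds the motif. Capitals mark matches on either strand to AP-1 (TGANTCA), the CCAAT box (CCAAT), the CHR element (TTTGAA) or the GATA motif (AGATAA). The sequences are from RefSeq, build GRCm38.p6, written 5′ to 3′ on the strand of the gene: Krtdap at chr7:30787655-30787904 (plus strand), the first of 2 starts of Mmp12 at chr9:7344147-7344396 (plus strand), Spc25 at chr2:69206214-69206463 (minus strand) and Trim10 at chr17:36869324-36869573 (plus strand).
Krtdap: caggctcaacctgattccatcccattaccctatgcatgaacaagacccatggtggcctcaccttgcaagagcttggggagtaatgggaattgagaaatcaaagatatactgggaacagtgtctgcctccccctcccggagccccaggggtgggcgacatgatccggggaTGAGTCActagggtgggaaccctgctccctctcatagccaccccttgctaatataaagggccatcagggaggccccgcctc
Mmp12: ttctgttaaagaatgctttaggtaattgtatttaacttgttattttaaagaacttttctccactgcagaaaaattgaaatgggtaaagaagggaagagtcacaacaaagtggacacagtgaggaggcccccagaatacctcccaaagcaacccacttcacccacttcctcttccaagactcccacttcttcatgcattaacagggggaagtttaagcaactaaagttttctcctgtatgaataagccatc
Spc25: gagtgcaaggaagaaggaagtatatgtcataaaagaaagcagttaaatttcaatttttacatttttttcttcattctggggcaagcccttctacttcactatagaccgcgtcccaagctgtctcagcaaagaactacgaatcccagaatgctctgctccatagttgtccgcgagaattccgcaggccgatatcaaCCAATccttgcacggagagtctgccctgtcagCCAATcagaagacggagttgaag
Trim10: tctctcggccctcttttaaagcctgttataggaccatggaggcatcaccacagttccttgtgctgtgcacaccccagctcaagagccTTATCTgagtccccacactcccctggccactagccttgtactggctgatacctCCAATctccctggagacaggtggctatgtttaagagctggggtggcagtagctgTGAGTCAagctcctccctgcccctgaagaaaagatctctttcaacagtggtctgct

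Counted back from the start, the Krtdap window held the AP-1 letters at position -81, and the Mmp12 window none of the 4 motifs. In Spc25 the CCAAT letters occurred at -55 and -23, and Trim10 held a GATA match at -163, CCAAT at -110 and AP-1 at -56. The AP-1 letters occurred in 8 of 29 windows of the keratinocyte list (27.6%) and 4 of 22 of the matrix proteases (18.2%), against 6.75% of all 32851 promoter windows. CCAAT occurred in 46 of 62 windows of the cell cycle list (74.2%, against 33.8% of all) and TTTGAA in 32.3% against 16.0%. AGATAA occurred in 8 of 29 erythroid windows (27.6%) and equally in 8 of 29 keratinocyte windows, against 9.99% of all. These are matches of letters only.

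Among genes with an interaction below 0, Krtdap stood first. It encodes keratinocyte differentiation associated protein, a secreted product of the upper epidermis. Its signal was 8.35, 8.52 and 8.03 in Mmp8+/+ controls, 8.33, 8.49 and 7.69 in Mmp8-/- controls, 8.17, 8.68 and 8.58 in arthritic Mmp8+/+ mice and 6.50, 6.44 and 7.00 in arthritic Mmp8-/- mice. The 3 arthritic Mmp8-/- mice lay below all 9 others, which overlapped. The arthritis change was -1.52 (adjusted p = 0.000462) in Mmp8-/- mice and 0.17 in Mmp8+/+ mice, giving an interaction of -1.69 (SE 0.33, 95% interval -2.39 to -1.0, adjusted p = 0.705). Between arthritic mice of the 2 genotypes Krtdap differed by -1.83 (adjusted p = 0.0207). The interaction was -1.64 without the arrays with Xist signal and -1.53 without the Mmp8-/- array with Mmp8 signal.

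Mmp12, the macrophage elastase, showed another pattern. The signals were 5.99, 6.09 and 5.98 in Mmp8+/+ controls, 7.40, 6.66 and 7.28 in Mmp8-/- controls, 6.05, 5.83 and 6.09 in arthritic Mmp8+/+ mice and 5.14, 5.38 and 5.95 in arthritic Mmp8-/- mice. All Mmp8-/- controls lay above the other 9 arrays, and the arthritic Mmp8-/- mice overlapped the arthritic Mmp8+/+ mice. In Mmp8-/- mice Mmp12 fell by 1.62 with arthritis (adjusted p = 0.000169), whereas the change in Mmp8+/+ mice was -0.03, and the interaction was -1.59 (SE 0.31, 95% interval -2.25 to -0.93). Mmp12 lies near Mmp8 on chromosome 9. Its interaction was -1.43 without the Xist arrays and -1.81 without the Mmp8-/- array with Mmp8 signal, itself the lowest of the Mmp8-/- controls for Mmp12.

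Lrrc28, a leucine-rich repeat protein of unknown role, resembled Mmp12 in its control groups. It measured 7.18, 7.62 and 7.05 in Mmp8+/+ controls, 8.09, 8.05 and 7.79 in Mmp8-/- controls, 7.39, 7.40 and 7.44 in arthritic Mmp8+/+ mice and 6.61, 6.50 and 7.11 in arthritic Mmp8-/- mice. In controls the Mmp8-/- mice were all higher than the Mmp8+/+ mice, and in arthritic animals all lower. The arthritis change was -1.24 in Mmp8-/- mice (adjusted p = 0.000525) and the interaction -1.36 (SE 0.27, 95% interval -1.94 to -0.79).

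Plod1, which hydroxylates lysines of collagen, rose with arthritis in Mmp8+/+ mice by 0.80 (adjusted p = 0.00358), whereas the change in Mmp8-/- mice was -0.04. Its signals were 9.09, 9.44 and 8.92 in Mmp8+/+ controls, 9.70, 9.83 and 9.69 in Mmp8-/- controls, 9.89, 9.94 and 10.01 in arthritic Mmp8+/+ mice and 9.48, 9.77 and 9.84 in arthritic Mmp8-/- mice. Mmp8-/- controls thus already lay within the range of arthritic Mmp8-/- mice, and above all Mmp8+/+ controls. The interaction was -0.85 (SE 0.23).

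The other genes among the 12 with the lowest p below 0 were Elovl4 (-1.73), an elongase of very long fatty acids of the skin barrier, Sdr16c6 (-1.45), a dehydrogenase, Sprr1a (-1.17), a cornified envelope protein, Gdpgp1 (-1.13), Hhipl1 (-0.91), the ephrin receptor Ephb1 (-0.90), the lipase-like Abhd3 (-0.82) and Col6a1 (-0.81). A further feature of Ephb1 gave 0.02, so its features disagreed. Hhipl1 rose in Mmp8+/+ mice by 1.17 (adjusted p = 0.000383), with a change of 0.26 in Mmp8-/- mice. Abhd3 fell by 0.79 in Mmp8-/- mice (adjusted p = 0.00255), with a change of 0.02 in Mmp8+/+ mice and its Mmp8-/- controls highest, at 6.95, 6.76 and 6.48 against 5.88 to 6.16 in all other arrays.

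Among genes with an interaction above 0, Gnat1, the transducin subunit of rod photoreceptors, had the lowest p. Signals were low throughout: 5.75, 5.45 and 5.82 in Mmp8+/+ controls, 4.86, 4.97 and 4.87 in Mmp8-/- controls, 5.86, 5.40 and 5.30 in arthritic Mmp8+/+ mice and 5.84, 5.67 and 5.88 in arthritic Mmp8-/- mice. The 3 Mmp8-/- controls were below the other 9 arrays, which overlapped. Gnat1 rose with arthritis in Mmp8-/- mice by 0.90 (adjusted p = 0.00237), and the interaction was 1.05 (SE 0.24, 95% interval 0.54 to 1.57, adjusted p = 1).

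Gfi1, a repressor that directs granulocyte differentiation, fell with arthritis by 1.21 in Mmp8+/+ mice (adjusted p = 0.000415), with a change of -0.25 in Mmp8-/- mice. It measured 7.10, 6.83 and 6.96 in Mmp8+/+ controls, 6.51, 6.44 and 6.43 in Mmp8-/- controls, 5.66, 5.82 and 5.79 in arthritic Mmp8+/+ mice and 6.67, 5.89 and 6.07 in arthritic Mmp8-/- mice. Mmp8+/+ controls were the highest and arthritic Mmp8+/+ mice the lowest, with all Mmp8-/- mice between them. The interaction was 0.96 (SE 0.26), and 0.92 without the arrays with Xist signal.

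Ccr3, the eotaxin receptor of eosinophils, followed the same order in controls. Its signal was 7.97, 7.74 and 8.44 in Mmp8+/+ controls, 7.21, 7.35 and 7.56 in Mmp8-/- controls, 6.84, 6.61 and 6.85 in arthritic Mmp8+/+ mice and 6.77, 6.98 and 7.13 in arthritic Mmp8-/- mice. The control groups did not overlap and the arthritic groups did. Ccr3 fell by 1.29 in Mmp8+/+ mice (adjusted p = 0.000305), with a change of -0.41 in Mmp8-/- mice and an interaction of 0.88 (SE 0.26).

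The remaining genes of the 12 above 0 were Dhrs7c (1.22), a dehydrogenase of the sarcoplasmic reticulum, Klhl30 (1.11), the sodium-proton exchanger Slc9a5 (1.09), Smco2 (0.98), the transcription factor Stat4 (0.94), Smim5 (0.85), the carboxylesterase Ces2b (0.84), Ankdd1b (0.79) and the ubiquitin ligase Mkrn1 (0.77). For Stat4, signal fell by 1.52 in Mmp8+/+ mice (adjusted p = 0.000123) and fell by 0.58 in Mmp8-/- mice (adjusted p = 0.0496), so that an interaction above 0 here is a smaller fall. Slc9a5 and Ankdd1b were carried by arthritic Mmp8-/- mice, which measured 6.45, 6.25 and 6.15 for Slc9a5 against 5.07 to 6.05 elsewhere, and 6.80, 6.47 and 6.31 for Ankdd1b against 5.6 to 6.06 elsewhere. Ankdd1b rose in Mmp8-/- mice by 0.80 (adjusted p = 0.00338).

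Of these 24 genes, the group taking part in both larger differences was the Mmp8+/+ controls for 9, the Mmp8-/- controls for 7, arthritic Mmp8+/+ mice for 5 and arthritic Mmp8-/- mice for 3. All 24 kept their sign under each alternative in which they were tested, and 17 kept an unadjusted p under 0.05 in all of them. With both kinds of mismatched array left out, 22 of the 24 stayed within 1.5 times of their size, and the others, Elovl4 and Sprr1a, were -0.53 and -0.54. The feature with the lowest p of all was 1 of 3 for Fam220a and falls outside the naming rule, since it is not the brightest for its gene. It gave 7.38, 7.04 and 7.12, then 6.54, 6.38 and 6.03 in controls of the 2 genotypes (Mmp8+/+ first), and 6.18, 5.58 and 6.22, then 6.82, 6.58 and 7.02 in arthritic mice. Its interaction was 1.67 (SE 0.29, adjusted p = 0.648), while the other 2 features of the gene gave 0.24 (SE 0.24) and -0.05 (SE 0.21).

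**Figure D2:**
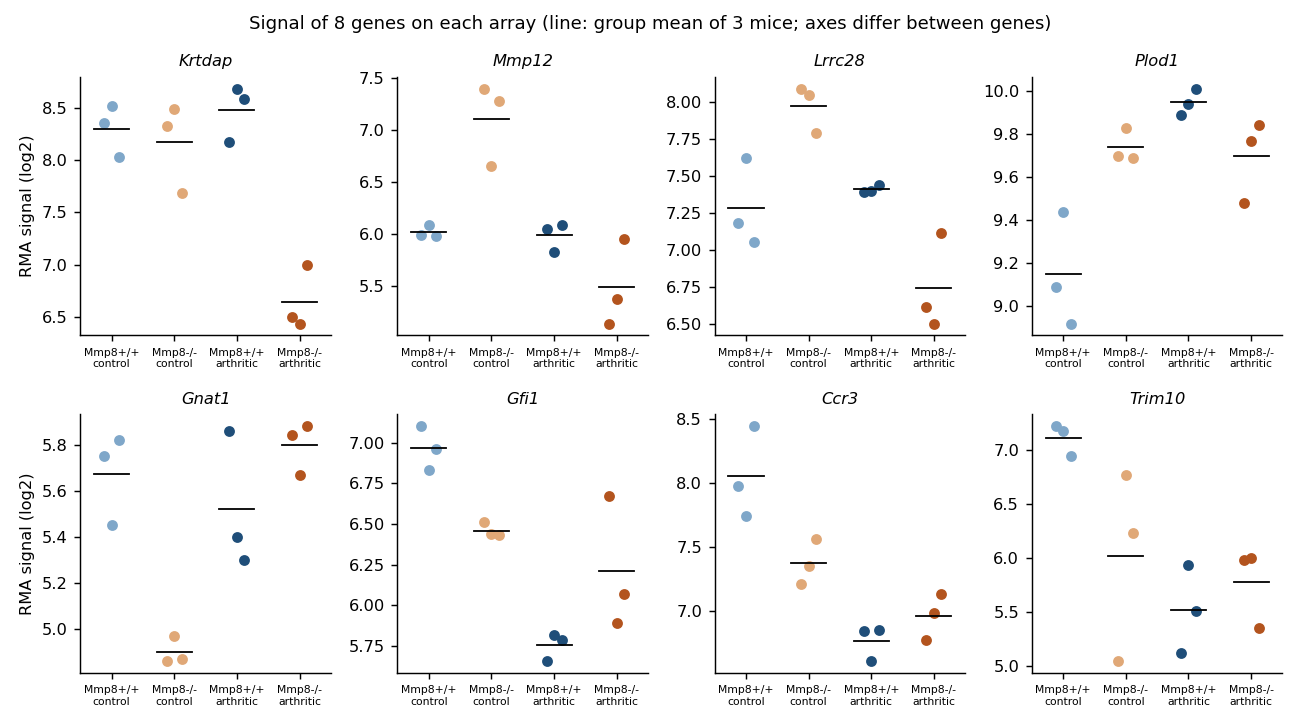
Signal (log2 RMA value, vertical axis) of 8 genes in each of the 12 arrays by group, with lines at the mean of 3 mice and a separate axis for each gene. In Krtdap the arthritic Mmp8-/- mice stand below all others, in Mmp12 the Mmp8-/- controls stand above them, in Gnat1 below them, and in Gfi1 and Ccr3 the Mmp8+/+ controls are highest.

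The interaction was then described over 31 lists of genes that stand for cell types and functions of the joint. Of their 835 genes, 68 (8.14%, against 3.28% of all genes) had an unadjusted p under 0.05, 49 below 0 and 19 above 0. Members and lists were chosen with earlier results of these data known. Some members, such as Postn, Tnn, Anpep and Capn6, are also genes that the study tabulated as discordant from these arrays. The higher share is therefore not independent evidence about the lists. The median interaction over all 16956 genes was -0.01, with 8180 genes above 0 and 8776 below. For 18 lists the median lay between -0.2 and 0.2. Medians at most -0.3 were found for 3 lists, those of keratinocytes, matricellular proteins and matrix proteases, and medians of at least 0.3 for 5, those of erythroid cells, megakaryocytes, granulocyte precursors, skeletal muscle and cell cycle. Genes of a list rise and fall together in a mixed tissue and are not independent of one another, and these medians carry no test.

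**Figure D3:**
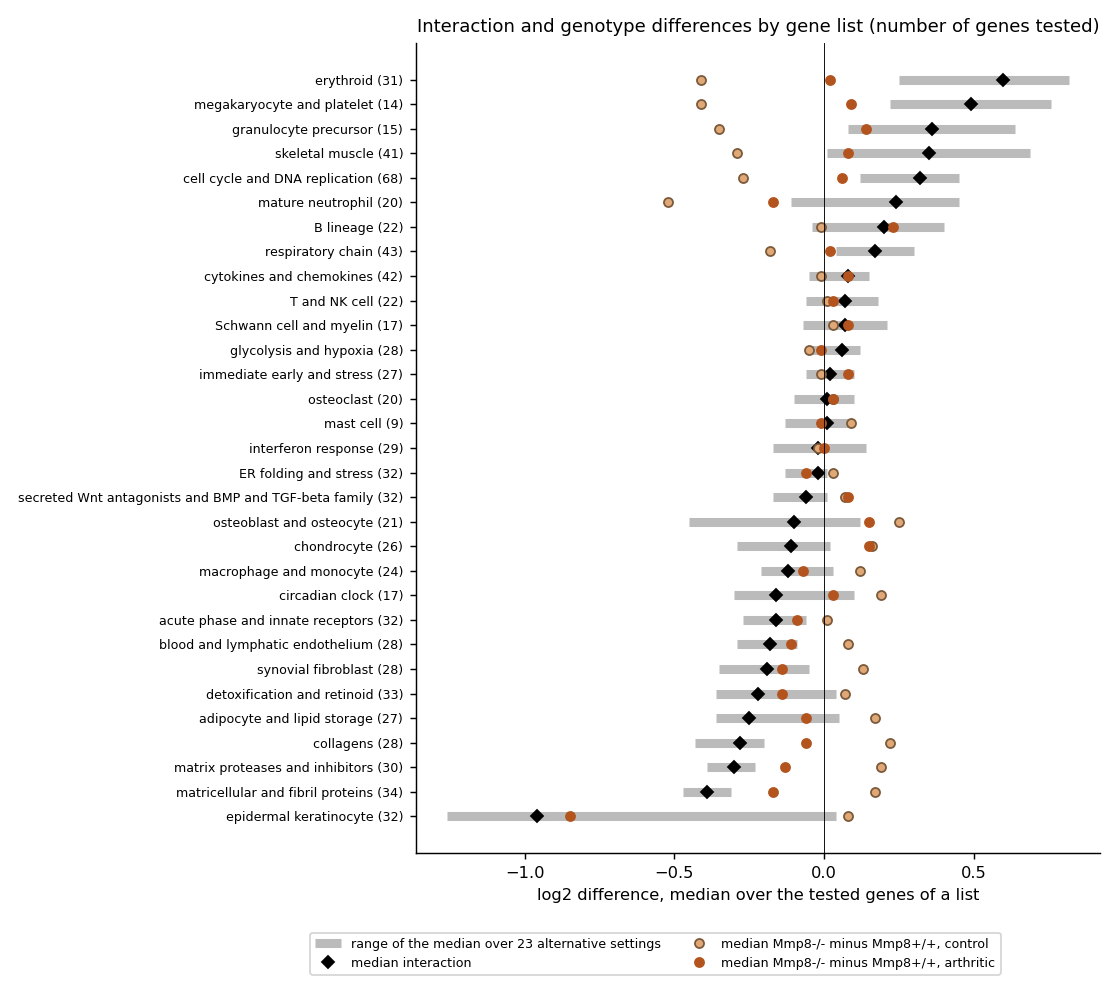
Median over each gene list (rows, with the number of genes tested) of the interaction (diamonds) and of the genotype difference in control and in arthritic mice (circles), on the log2 scale; grey bars span the median interaction over 23 alternative settings. In the erythroid, megakaryocyte, granulocyte precursor, muscle and cell cycle lists the control circles lie below 0 and the arthritic circles between 0.02 and 0.14. In the matrix lists the control circles lie above 0, and in the keratinocyte list the arthritic circle lies far below 0.

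Many genes of the extracellular matrix rose with arthritis, and most of their interactions lay below 0. In the list of matricellular and fibril proteins, which coat, crosslink or organise collagen, 22 of 34 genes rose in Mmp8+/+ mice at an FDR of 5% and 15 in Mmp8-/- mice, against 7.3% and 8.05% of all features. In the same order 4 and 6 of the 34 fell, against 11.5% and 13.5% of all features. All 34 interactions were below 0, with a median of -0.39 and 8 at an unadjusted p under 0.05. The median genotype difference was 0.17 in controls and -0.17 in arthritic mice, so that the difference was split evenly between a higher start and a lower end point in knockouts.

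Mfap4, a microfibril-associated glycoprotein of elastic fibres, had the largest interaction of this list among those with a p under 0.05. The values were 6.95, 7.74 and 6.98 in Mmp8+/+ controls, 7.93, 8.06 and 7.99 in Mmp8-/- controls, 9.30, 9.27 and 9.08 in arthritic Mmp8+/+ mice and 9.15, 8.99 and 9.02 in arthritic Mmp8-/- mice. Every Mmp8-/- control was above every Mmp8+/+ control, while the arthritic groups overlapped. Mfap4 rose by 2.00 in Mmp8+/+ mice (adjusted p = 9.81e-06) and by 1.06 in Mmp8-/- mice (adjusted p = 0.00171), with an interaction of -0.94 (SE 0.27).

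Postn, which encodes periostin of activated fibroblasts, rose by 2.19 in Mmp8+/+ mice (adjusted p = 2.4e-06) and by 1.56 in Mmp8-/- mice (adjusted p = 5.24e-05), an interaction of -0.63 (SE 0.25). It measured 10.52, 10.99 and 10.74 in Mmp8+/+ controls and 11.02, 11.33 and 11.37 in Mmp8-/- controls, and all 6 arthritic mice lay between 12.60 and 13.12. Here the controls differed without overlap and the arthritic mice did not. Tnn, tenascin-W, had an interaction of -0.67 (SE 0.29) that came more from the arthritic side, at 10.44, 10.40 and 10.55 in Mmp8+/+ and 10.21, 10.38 and 9.69 in Mmp8-/- mice, and was -1.01 with both kinds of mismatched array left out. The other members with a p under 0.05 were the crosslinking enzyme Loxl1 (-0.57), elastin Eln (-0.52), fibulin Fbln2 (-0.47) and the prolyl hydroxylase subunit P4ha2 (-0.47).

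Collagen genes showed the same direction. Of 28 tested, 15 rose and 2 fell in Mmp8+/+ mice at an FDR of 5%, and 7 rose and 3 fell in Mmp8-/- mice. Over all features 7.3% rose and 11.5% fell in Mmp8+/+ mice, and 8.05% rose and 13.5% fell in Mmp8-/- mice. The median interaction was -0.28, and 25 of the 28 were below 0. Of these, 5 had an unadjusted p under 0.05. Col6a1, a chain of the pericellular collagen type VI, rose by 0.63 in Mmp8+/+ mice (adjusted p = 0.0137), with a change of -0.19 in Mmp8-/- mice. It measured 10.68, 10.34 and 10.42 in Mmp8+/+ controls, 10.97, 10.86 and 10.98 in Mmp8-/- controls, 11.31, 10.91 and 11.09 in arthritic Mmp8+/+ mice and 10.83, 10.85 and 10.57 in arthritic Mmp8-/- mice. The genotypes were separated without overlap in both states and in opposite directions. Its partner Col6a2 gave -0.57, the fibrillar Col3a1 -0.63 and Col5a2 -0.68 (SE 0.26), and Col11a1 -0.82 (SE 0.34).

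Col11a1, a fibril-forming chain of cartilage, departed from this pattern: its Mmp8-/- controls measured 10.93, 9.77 and 10.82 and all other arrays 9.73 to 10.09. It fell in Mmp8-/- mice by 0.72 (adjusted p = 0.0434) and had a change of 0.09 in Mmp8+/+ mice. The low Mmp8-/- control was array 2, the one with Mmp8 signal. For the collagen list as a whole the median genotype difference was 0.22 in controls and -0.06 in arthritic mice, so the unequal response lay mainly in the controls, and the mean signal over the list was 9.23 to 9.45 in Mmp8+/+ controls, 9.48 to 9.74 in Mmp8-/- controls and 9.65 to 9.90 in all arthritic mice. The median interaction of the list stayed between -0.43 and -0.20 over all alternatives, and that of matricellular proteins between -0.47 and -0.31.

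Matrix proteases and their inhibitors had a median interaction of -0.30 over 30 tested genes, 23 of them below 0 and 9 with an unadjusted p under 0.05, all below 0. This list holds Mmp8 itself, whose interaction of -1.54 includes the signal in the array labelled Mmp8-/- control 2. Over the 29 other genes the median was -0.27, with 22 below 0 and 9 at a p under 0.05. Mmp2, gelatinase A of fibroblasts, rose by 0.93 in Mmp8+/+ mice (adjusted p = 0.000974), with a change of 0.17 in Mmp8-/- mice and an interaction of -0.76 (SE 0.22). Its signals were 11.40, 11.49 and 11.67 in Mmp8+/+ controls, 11.89, 11.91 and 12.13 in Mmp8-/- controls, 12.68, 12.33 and 12.33 in arthritic Mmp8+/+ mice and 12.11, 12.30 and 12.03 in arthritic Mmp8-/- mice. Again Mmp8-/- mice were higher than Mmp8+/+ mice in controls and lower in arthritis, without overlap in either.

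Mmp14, the membrane protease that activates pro-MMP-2, had an interaction of -0.73. It measured 10.79, 10.95 and 10.44 in Mmp8+/+ controls, 11.66, 11.52 and 11.51 in Mmp8-/- controls, 11.68, 11.94 and 11.65 in arthritic Mmp8+/+ mice and 11.50, 12.15 and 11.93 in arthritic Mmp8-/- mice. Mmp8-/- controls thus stood well above Mmp8+/+ controls and close to the arthritic mice of both genotypes. Adamts12, a protease of cartilage matrix proteins, rose by 1.54 in Mmp8+/+ mice (adjusted p = 6.62e-05) and by 0.77 in Mmp8-/- mice (adjusted p = 0.0106), with an interaction of -0.77 (SE 0.26). Mmp23 (-0.68), Mmp11 (-0.66), Adamts15 (-0.64), Adamts7 (-0.53) and Mmp28 (-0.43) made up the rest, and Mmp11 was -1.05 with both kinds of mismatched array left out. Leaving out Mmp8, the mean signal of the list was 8.17, 8.25 and 8.18 in Mmp8+/+ controls, 8.39, 8.37 and 8.49 in Mmp8-/- controls, 8.89, 8.79 and 8.74 in arthritic Mmp8+/+ mice and 8.65, 8.75 and 8.69 in arthritic Mmp8-/- mice. The genotypes did not overlap in controls and overlapped in arthritic mice.

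**Figure D4:**
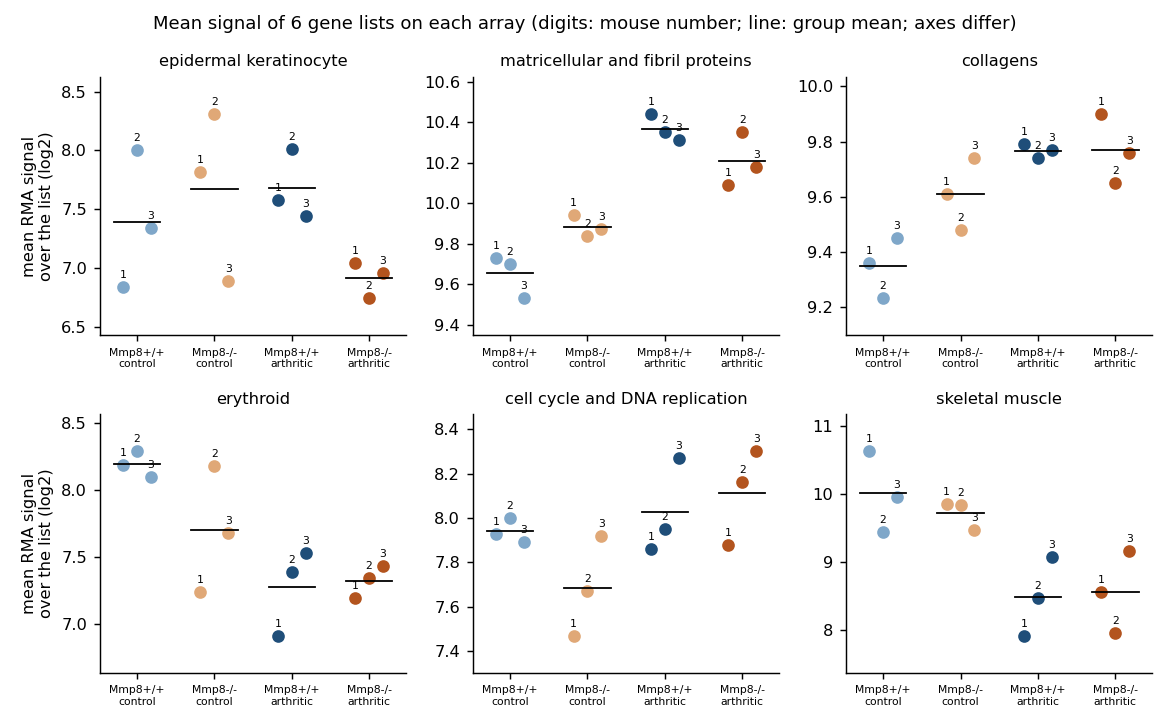
Mean signal (log2, vertical axis) over the genes of 6 lists in each of the 12 arrays by group, with lines at the mean of 3 mice. Arthritic Mmp8-/- mice lie lowest for keratinocyte genes apart from 2 control arrays of similar level, Mmp8+/+ controls are lowest for collagens and matricellular proteins, and Mmp8-/- control 1 is far below the other controls for erythroid genes.

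Epidermal genes had the lowest median interaction, -0.96 over 32 tested genes of the keratinocyte list, with 31 below 0 and 10 at an unadjusted p under 0.05. In Mmp8-/- mice 5 of them fell with arthritis at an FDR of 5%, close to the 13.5% of all features, and none rose. In Mmp8+/+ mice 2 rose, close to the 7.3% of all features, and none fell. The median genotype difference was 0.08 in controls and -0.85 in arthritic mice. Besides Krtdap and Elovl4, described above, Sbsn, suprabasin of the upper epidermis, measured 8.02, 7.50 and 7.62 in arthritic Mmp8-/- mice and between 8.58 and 9.27 in all other arrays. It fell in Mmp8-/- mice by 1.27 (adjusted p = 0.000773) and had an interaction of -0.97 (SE 0.29).

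Keratins of the same list varied far more within groups. Krt10, the keratin of suprabasal cells, measured 9.28, 12.03 and 10.59 in Mmp8+/+ controls, 10.83, 12.31 and 9.11 in Mmp8-/- controls, 11.24, 11.89 and 11.25 in arthritic Mmp8+/+ mice and 9.65, 9.11 and 9.66 in arthritic Mmp8-/- mice. Arthritic Mmp8-/- mice were below the other arthritic mice, but 1 control of each genotype was as low. Krt5, of the basal layer, gave 8.39, 9.39 and 8.79, then 9.07, 9.72 and 7.99 in Mmp8+/+ and Mmp8-/- controls, and 9.30, 9.67 and 9.11, then 8.15, 8.42 and 7.81 in arthritic mice. The interaction was -2.11 for Krt10, -1.31 for Krt5, -1.31 for its basal partner Krt14, -1.94 for the desquamation protease Klk7 and -1.52 for dermokine, Dmkn.

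Over the list, the mean signal was 6.84 to 8.00 in Mmp8+/+ controls, 6.89 to 8.31 in Mmp8-/- controls, 7.44 to 8.01 in arthritic Mmp8+/+ mice and 6.74 to 7.04 in arthritic Mmp8-/- mice. Mmp8+/+ control 1 and Mmp8-/- control 3 were as low as the arthritic Mmp8-/- mice. When both kinds of mismatched array were left out, Mmp8-/- control 3 alone represented its group, and the median interaction of the list was 0.04, that of Krt10 0.20 and that of Krt14 0.08, that of Klk7 -0.59, of Dmkn -0.20, of Krt5 -0.14, of Elovl4 -0.53 and of Krtdap -1.24. Whether the amount of skin in the ankle samples differed between arrays was not tested.

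The erythroid, megakaryocyte and granulocyte precursor lists gave the highest medians. Other blood cell lists were lower, at 0.24 for mature neutrophils, 0.20 for B lineage and 0.07 for T and NK cells. Mast cells gave 0.01 and macrophages and monocytes -0.12. Erythroid genes, listed from precursors to red cells, had a median interaction of 0.60 over 31 tested genes, 25 above 0, with 5 at an unadjusted p under 0.05. In Mmp8+/+ mice 17 of the 31 fell with arthritis at an FDR of 5% (11.5% of all features did). In Mmp8-/- mice 5 fell, close to the 13.5% of all features, and none rose in either genotype. The median genotype difference was -0.41 in controls and 0.02 in arthritic mice, and Mmp8+/+ controls took part in both larger differences for 23 of the 31. The median arthritis change was -0.93 in Mmp8+/+ and -0.38 in Mmp8-/- mice. For genes falling in both, an interaction above 0 already makes the Mmp8+/+ fall the larger, so this count does not show which controls were unusual. Mean signals were 8.19, 8.29 and 8.10 in Mmp8+/+ controls, 7.24, 8.18 and 7.68 in Mmp8-/- controls, 6.91, 7.39 and 7.53 in arthritic Mmp8+/+ mice and 7.19, 7.34 and 7.43 in arthritic Mmp8-/- mice. Arthritic mice overlapped, and 1 Mmp8-/- control lay within the range of the Mmp8+/+ controls.

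Trim10, an erythroid protein of terminal red cell maturation, followed this order. It measured 7.22, 7.18 and 6.94 in Mmp8+/+ controls, 5.05, 6.77 and 6.23 in Mmp8-/- controls, 5.12, 5.94 and 5.51 in arthritic Mmp8+/+ mice and 5.98, 6.00 and 5.35 in arthritic Mmp8-/- mice. Mmp8-/- control 1 was the lowest of all 12 arrays. The interaction of 1.35 (SE 0.48) was 0.81 without the arrays with Xist signal, of which that array is one. Kel, the Kell blood group antigen, gave 0.93 and 0.49 without them, and Alas2, the first enzyme of haem synthesis in red cells, 1.23 and 1.09. Gata1, the transcription factor of the lineage, gave 0.80 and 0.78. Without Mmp8-/- control 2, the array with Mmp8 signal, Trim10, Kel, Alas2 and Gata1 gave 1.72, 1.28, 1.53 and 0.94. With both kinds of mismatched array left out they gave 1.08, 0.87, 1.51 and 0.86. Leaving out Mmp8-/- control 1 took the median of the erythroid list from 0.60 to 0.25. That median was 0.82 without Mmp8-/- control 2 and 0.48 with both kinds left out.

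Megakaryocyte and platelet genes had a median of 0.49 over 14 genes. At an FDR of 5%, 9 fell in Mmp8+/+ and 8 in Mmp8-/- mice, against 11.5% and 13.5% of all features, and none rose. Itga2b, the platelet integrin chain, had an interaction of 0.69 (SE 0.30), and Gp5, a chain of the von Willebrand factor receptor, one of 0.68 (SE 0.30). Gp5 measured 8.76, 8.52 and 8.58 in Mmp8+/+ controls, 7.48, 8.22 and 8.39 in Mmp8-/- controls, 6.73, 6.92 and 7.21 in arthritic Mmp8+/+ mice and 7.22, 7.01 and 6.91 in arthritic Mmp8-/- mice. Control genotypes did not overlap, and Mmp8-/- control 1 was again the lowest control. With both kinds of mismatched array left out the values of Itga2b and Gp5 were 0.22 and 0.25, and the median of the list was 0.22.

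Granulocyte precursor genes had a median of 0.36 over 15 genes, 14 of them above 0 and 3 with an unadjusted p under 0.05. Besides Gfi1 these were Ctsg, cathepsin G of primary granules (1.25, SE 0.49), and Cebpe, the factor of late granule genes (0.72, SE 0.33). Ctsg measured 9.88, 9.30 and 9.62 in Mmp8+/+ controls, 7.89, 8.74 and 9.39 in Mmp8-/- controls, 7.62, 8.24 and 8.96 in arthritic Mmp8+/+ mice and 8.82, 8.48 and 8.48 in arthritic Mmp8-/- mice. It fell in Mmp8+/+ mice by 1.33 (adjusted p = 0.0156), with a change of -0.08 in Mmp8-/- mice. Controls overlapped through Mmp8-/- control 3. With both kinds of mismatched array left out Ctsg was 0.39, Cebpe 0.47 and the median of this list 0.08.

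Mature neutrophil genes, which include Mmp8, had a median of 0.24 over 20 genes and no member with an unadjusted p under 0.05. Leaving out Mmp8, the median was 0.26 and the mean signal was 8.98 in Mmp8-/- control 1 and between 9.39 and 10.10 in the other 11 arrays. The median turned to -0.11 with both kinds of mismatched array left out. Mmp8-/- control 1 was the lowest control for the erythroid, megakaryocyte, granulocyte precursor and mature neutrophil lists alike, and without it their medians were 0.25, 0.28, 0.25 and -0.04. For matrix genes the same array mattered less: without it the medians were -0.31 for matricellular proteins and -0.30 for collagens.

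Cell cycle genes had a median interaction of 0.32 over 68 genes, and 62 were above 0. In Mmp8-/- mice 20 of them rose with arthritis at an FDR of 5%, against 8.05% of all features, and none fell. In Mmp8+/+ mice 5 rose, close to the 7.3% of all features, and none fell. Mmp8-/- controls took part in both larger differences for 43 of the 68, with a median genotype difference of -0.27 in controls and 0.06 in arthritic mice. The mean signals were 7.93, 8.00 and 7.89 in Mmp8+/+ controls, 7.47, 7.67 and 7.92 in Mmp8-/- controls, 7.86, 7.95 and 8.27 in arthritic Mmp8+/+ mice and 7.88, 8.16 and 8.30 in arthritic Mmp8-/- mice. Mmp8-/- controls 1 and 2 were the lowest of all arrays, whereas Mmp8-/- control 3 was level with the Mmp8+/+ controls.

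Ndc80 and Spc25, subunits of the same kinetochore complex that holds chromosomes to the spindle, had interactions of 0.79 and 0.76. Spc25 measured 8.08, 8.57 and 8.16 in Mmp8+/+ controls, 7.70, 7.70 and 8.25 in Mmp8-/- controls, 8.21, 8.06 and 8.53 in arthritic Mmp8+/+ mice and 8.53, 8.53 and 8.86 in arthritic Mmp8-/- mice. The groups overlapped in both states through Mmp8-/- control 3 and arthritic Mmp8+/+ mouse 3. Ccne2, a cyclin of DNA replication start, gave 0.91 (SE 0.38), the mitotic cyclin Ccnb2 0.66 and the cohesin protector Sgo1 0.75. With both kinds of mismatched array left out the median of the list was 0.12, and the values of Ndc80, Spc25, Ccne2 and Sgo1 were 0.42, 0.49, 0.58 and 0.38.

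Skeletal muscle genes had a median of 0.35 over 41 genes, 37 above 0, with no member at an unadjusted p under 0.05. Of the 41, 30 fell with arthritis in Mmp8+/+ and 20 in Mmp8-/- mice at an FDR of 5%, and none rose. Over all features 11.5% and 13.5% fell. Mmp8+/+ control 1 had the highest mean signal, 10.63, against 9.45 to 9.96 in the other 5 controls, and the median was 0.01 without it.

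Inflammatory mediators had small interactions in comparison with their rise. Of 42 cytokine and chemokine genes, 24 rose in Mmp8+/+ mice and 26 in Mmp8-/- mice at an FDR of 5%, against 7.3% and 8.05% of all features. In the same order 3 and 2 fell, against 11.5% and 13.5% of all features. The median interaction was 0.08. An unadjusted p under 0.05 was found for 1 gene above 0 and 2 below. Cxcl13, the B cell chemoattractant, had an interaction of 0.87 (SE 0.36) and measured 5.63, 6.38 and 6.16 in Mmp8+/+ controls, 5.47, 4.89 and 5.35 in Mmp8-/- controls, 7.86, 6.97 and 7.80 in arthritic Mmp8+/+ mice and 7.53, 7.40 and 7.86 in arthritic Mmp8-/- mice. Only its controls were separated. Ccl8, a monocyte chemoattractant, had -1.39 (SE 0.58), but Mmp8+/+ control 1 measured 5.46 against 7.15 to 7.66 in the other controls, and without that array the interaction was -0.79. Ptges, the inducible prostaglandin E synthase, gave -0.58 (SE 0.27).

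Il1b, the gene of interleukin-1β, had an interaction of 0.43 (SE 0.25, 95% interval -0.10 to 0.97, adjusted p = 1). It measured 8.59, 8.32 and 8.69 in Mmp8+/+ controls, 7.98, 8.31 and 8.54 in Mmp8-/- controls, 10.61, 10.24 and 10.42 in arthritic Mmp8+/+ mice and 10.62, 10.48 and 10.70 in arthritic Mmp8-/- mice. Genotypes overlapped in both states, and the interaction was 0.14 with both kinds of mismatched array left out. Ptx3, the long pentraxin of the acute phase, gave 0.45 (95% interval -0.17 to 1.06), or 0.21 without those arrays, and Prokr2, a prokineticin receptor, 0.44 (95% interval -0.14 to 1.03). For Prokr2 the arthritic mice measured 7.07, 7.33 and 7.03 in Mmp8+/+ and 6.99, 7.67 and 7.74 in Mmp8-/- animals, which overlapped.

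Those 3 genes belong to a list of 29 that the study tabulated from these same arrays as responding discordantly, of which 28 could be tested. Since the list was chosen on these arrays, its values are not independent evidence. At an FDR of 5%, 23 of the 28 rose with arthritis and 5 fell in both genotypes. Over all features 7.3% rose and 11.5% fell in Mmp8+/+ mice, and 8.05% rose and 13.5% fell in Mmp8-/- mice. The study drew the list from genes with a strong arthritis change in either genotype on these arrays, so such counts were favoured in advance. The median interaction was -0.48, and 1 gene above 0 (Aspa, 0.57) and 8 below 0 had an unadjusted p under 0.05. Capn6, a calpain of the cytoskeleton, rose by 3.5 in Mmp8+/+ mice (adjusted p = 2.22e-07) and by 2.46 in Mmp8-/- mice (adjusted p = 7.8e-06), an interaction of -1.04 (SE 0.32, 95% interval -1.71 to -0.37). Mmp3, stromelysin 1, rose by 5.36 (adjusted p = 8.17e-09) and by 4.77 (adjusted p = 3.76e-08), with an interaction of -0.59 (SE 0.32, 95% interval -1.28 to 0.09). In arthritic mice it measured 13.04, 12.62 and 12.54 in Mmp8+/+ and 12.06, 11.98 and 12.11 in Mmp8-/- animals, without overlap. Anpep, aminopeptidase N of synovial fibroblasts, had an interaction of -0.84 (SE 0.24). The adjusted interaction p was 1 for all 28, so an unequal rise was not detectable after correction with 3 mice a group.

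The other lists had medians nearer to that of all genes, and most turned sign under at least 1 alternative. Those that kept it were respiratory chain (0.17, from 0.04 to 0.30 over the alternatives), synovial fibroblast (-0.19, from -0.35 to -0.05), blood and lymphatic endothelium (-0.18, from -0.29 to -0.09) and acute phase and innate receptors (-0.16, from -0.27 to -0.06). The smallest sizes were reached without arthritic Mmp8-/- mouse 1 for synovial fibroblasts, without the arrays with Xist signal for endothelium and acute phase, and without both kinds of mismatched array for the respiratory chain. Adipocyte and lipid storage (-0.25) turned to 0.05 without the arrays with Xist signal, detoxification and retinoid (-0.22) to 0.04 without Mmp8+/+ control 1, and circadian clock (-0.16) to 0.10 and B lineage (0.20) to -0.04 without both kinds of mismatched array. Macrophage and monocyte (-0.12) turned to 0.03 without arthritic Mmp8-/- mouse 1 and chondrocyte (-0.11) to 0.02 without arthritic Mmp8+/+ mouse 1. The osteoblast and osteocyte median (-0.10) was -0.45 without arthritic Mmp8-/- mouse 3 and 0.12 without Mmp8+/+ control 3. All other medians lay between -0.06 and 0.07 and took both signs over the alternatives: T and NK cell (0.07), Schwann cell and myelin (0.07), glycolysis and hypoxia (0.06), immediate early and stress (0.02), mast cell (0.01), osteoclast (0.01), interferon response (-0.02), ER folding and stress (-0.02) and secreted Wnt antagonists with the BMP and TGF-β family (-0.06). In the osteoclast list, the bone-resorbing cells, 4 of 20 genes rose and 3 fell in Mmp8+/+ mice at an FDR of 5%. In Mmp8-/- mice 4 rose and 1 fell. Over all features 7.3% rose and 11.5% fell in Mmp8+/+ mice, and 8.05% rose and 13.5% fell in Mmp8-/- mice. Genes of chromosome 9 near Mmp8 had a median of 0.07 over 21 genes, with Mmp20 (0.65, and 0.32 without both kinds of mismatched array) and Mmp12 at an unadjusted p under 0.05, and the median turned to -0.10 without the arrays with Xist signal. The inflammatory caspase Casp4 had an interaction of -0.85 (SE 0.42) that did not reach an unadjusted p of 0.05 and was -0.06 without both kinds of mismatched array. It measured 8.28, 7.90 and 8.18 in arthritic Mmp8+/+ and 6.13, 6.59 and 6.99 in arthritic Mmp8-/- mice, without overlap, and 7.55, 7.96 and 7.55 in Mmp8+/+ and 6.97, 7.71 and 6.26 in Mmp8-/- controls, which overlapped.

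**Figure D5:**
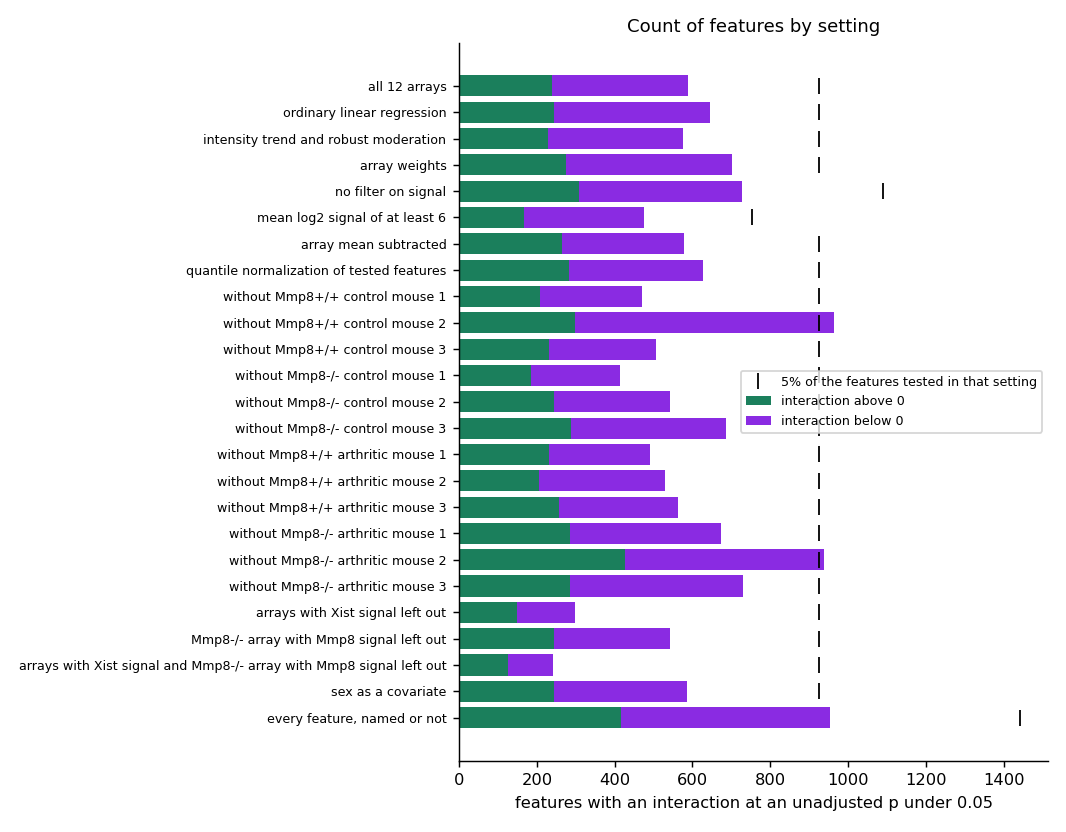
Number of features (horizontal axis) with an unadjusted interaction p under 0.05 in the analysis as described and under each alternative setting, split into interactions above and below 0, with a tick at 5% of the features tested. The count of 588 ranged from 242 to 963, and only the settings without Mmp8+/+ control 2 or without arthritic Mmp8-/- mouse 2 lifted it above 5% of the features.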

How the data were processed

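Ankle joint RNA of 12 mice was hybridised to Affymetrix Mouse Gene 1.0 ST arrays, 1 mouse per array. The deposited values are log2 signals that the authors made by Robust Multichip Average (RMA: background correction, quantile normalization and summary per feature) in Partek. RMA gives all arrays nearly the same distribution (median 6.74 to 6.82), so a shift of all genes at once cannot be seen; precision is limited by having 3 mice a group.

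Features were named from GEO's platform annotation: 21789 of 28853 had 1 symbol (21698 of these in RefSeq), 1621 several and 5443 none. Of those with 1 symbol, the 3294 with the lowest mean over the 12 arrays were left out, the lowest tested mean being 4.93; the study's background filter could not be repeated. Groups came from the sample labels, and replicate numbers follow accession order and pair nothing. A fit of 4 group means (R 4.3.3, limma 3.58.1, lmFit and eBayes, 14.7 moderated degrees of freedom) gave the interaction and the simple contrasts, with Benjamini-Hochberg adjustment over all tested features, after a test of the code on simulated data. Each array is 1 mouse, so the spread includes that between animals.

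Named were the 12 genes with the lowest interaction p in each direction, the 3 lowest in each gene list, and the genes the study tabulated as discordant, each by its brightest feature. The Fam220a feature and further list members with an unadjusted p under 0.05 were named after their values were seen. Members and lists were chosen with earlier results of these data known. Alternatives were ordinary regression, trend with robust moderation, array weights, 2 signal filters, 2 scalings, leaving out single or mismatched arrays, a sex term and every feature.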

Additional observations from a re-analysis of the deposited data

How the results depend on the processing

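No feature passed an FDR of 5% for the interaction under any alternative, and the lowest adjusted p, 0.152, came without Mmp8-/- control 3. The 588 features with an unadjusted p under 0.05 became 298 (149 in each direction) without both arrays with Xist signal, 242 (125 above 0, 117 below) without these and the Mmp8-/- array with Mmp8 signal, and 954 over every feature, named or not, an alternative chosen after seeing the data. Leaving out 1 array at a time gave 413 (without Mmp8-/- control 1) to 963 (without Mmp8+/+ control 2). Other alternatives stayed within 1.5 times of 588, among them 646 by ordinary regression and 587 with a sex term. Of the 588 features, 35.9% kept a p under 0.05 without the Xist arrays and 24.1% without both kinds of array, fits that leave fewer controls. Over 153 single interactions and 3529 values under alternatives, 6 turned sign: Krt10 to 0.20, Krt14 to 0.08 and Hdc, a mast cell gene with 0.30 as reported, to -0.03 without both kinds of array, and Ifitm1 (-0.15) to 0.01 there, without Mmp8+/+ control 3 and without arthritic Mmp8-/- mouse 1 (range without single arrays -0.31 to 0.01); the cause was not tested. Of 761 list medians under alternatives, 49 moved by more than the SD between arrays, and leaving Mmp8 out of the 2 lists that hold it, an alternative chosen after seeing the data, gave -0.27 for matrix proteases and 0.26 for neutrophils. With both kinds of array left out, 51 of 153 single interactions and 23 of 33 list medians moved by over 1.5 times or turned sign. No paired analysis was possible because replicate numbers were given in accession order only.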
